A study of Mus musculus with 2 samples.

Results

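Macrophage fusion and the osteoclast are served by a set of genes of which 10 were examined here, Dcstamp, Ocstamp, Cdh1, Ctnnb1, Cd44, Sirpa, Cd47, Nfatc1, Acp5 and Atp6v0d2, in macrophages that were left nontreated (NT) or were stimulated with interleukin-4 (IL-4). The genes were taken by symbol from a fixed list, and the rule uses symbols and no measured value. All 10 were found among the 15623 genes listed in the data, 9 of them with NT reads and 10 with IL-4 reads. The cells were peritoneal macrophages of wild-type C57BL/6 mice of 6 to 8 weeks, elicited with thioglycolate, purified by adherence and starved in medium with little serum. The NT group held 1 library and the IL-4 group, stimulated for 6 h, held 1 library. The labels give bone marrow as the tissue and peritoneal macrophages as the source, and the latter was used, as in the methods of the study. Whether each library came from 1 mouse or from pooled mice is not given in the sources used here. There were no replicates, so no difference below was set against the spread between replicates.

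IL-4 is the classical cytokine for making macrophages fuse in culture. Cells held in IL-4 come together over days into multinucleated giant cells, and osteoclasts form by a related fusion program under the cytokines M-CSF and RANKL. Both programs use the fusion proteins DC-STAMP and OC-STAMP, adhesion through E-cadherin, recognition between CD47 and SIRPα, and, in the osteoclast, the transcription factor NFATc1 and the enzymes TRAP and the V-ATPase that serve bone resorption. The sequenced cells were taken hours after the cytokine was added, and the number of nuclei per cell was not analysed here.

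The deposited tables give for each gene an expected count, which is an estimate of its reads, and a level in FPKM, which is scaled for transcript length and depth. The NT library held 11035641 expected counts and the IL-4 library 11250099. A floor of 3 counts corresponded to 0.272 CPM (counts scaled to the library total) in NT and to 0.267 CPM in IL-4. All 7 macrophage markers examined were present in both libraries, with 16529.5 CPM in sum in NT and 16351 CPM in IL-4. Most of that sum was Lyz2, with 129463 and 126458 counts, and 1 of the 7, Cd14, fell from 1219 to 591 counts. The IL-4 response was evident in Arg1, an enzyme of arginine breakdown that marks M2 macrophages, which went from 30 to 7711 expected counts. Chil3, which encodes the chitinase-like protein Ym1, went from 121 to 9566 expected counts.

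Of the 10 genes, 6 were higher in the IL-4 library, none was lower and 4 were not called. Ocstamp and Cdh1 went from almost no reads to a low level. Acp5, Cd44, Cd47 and Atp6v0d2, which were already well expressed, rose by 1.78-fold to 2.24-fold. Dcstamp lay just under the threshold, Ctnnb1 and Sirpa stayed near their NT level, and Nfatc1 was 0.743 times its NT level. Calls required a log2 ratio of 0.75 or more in size, together with an exact binomial p no higher than 0.05 and a Benjamini-Hochberg (BH) adjusted value no higher than 0.5. By the same rule 4.07% of all 15593 genes tested were called higher and 6.28% lower, against 60% and 0% of the 10 genes. The median NT level was 44.4 FPKM for the 10 genes and 4.4 FPKM over all genes tested. Genes with few reads can hardly be called, so these shares do not compare genes of like level. The 10 genes were proposed with earlier results of these data in view, so their share is a description and is not independent of these libraries. The test compares the reads of 2 libraries and covers counting error only. Reads made by PCR and not tagged with molecular identifiers are not independent of each other, which the intervals do not take into account. In RNA from whole cultures, more cells that express a gene and more RNA per cell cannot be told apart.

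The median log2 ratio was 0.93 over the 10 genes and -0.03 over all genes tested. The median of the 10 genes was also 0.93 with Ocstamp, which had no NT reads, set at its lower bound. This median could not differ, since Ocstamp lay above the middle values either way. The 10 genes together took 0.417% of the NT counts and 0.582% of the IL-4 counts. Their levels spanned the range of the transcriptome. In the NT library Atp6v0d2 stood at percentile 99.2 of the listed genes by FPKM and Cdh1 at percentile 1.14.

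**Figure D1:**
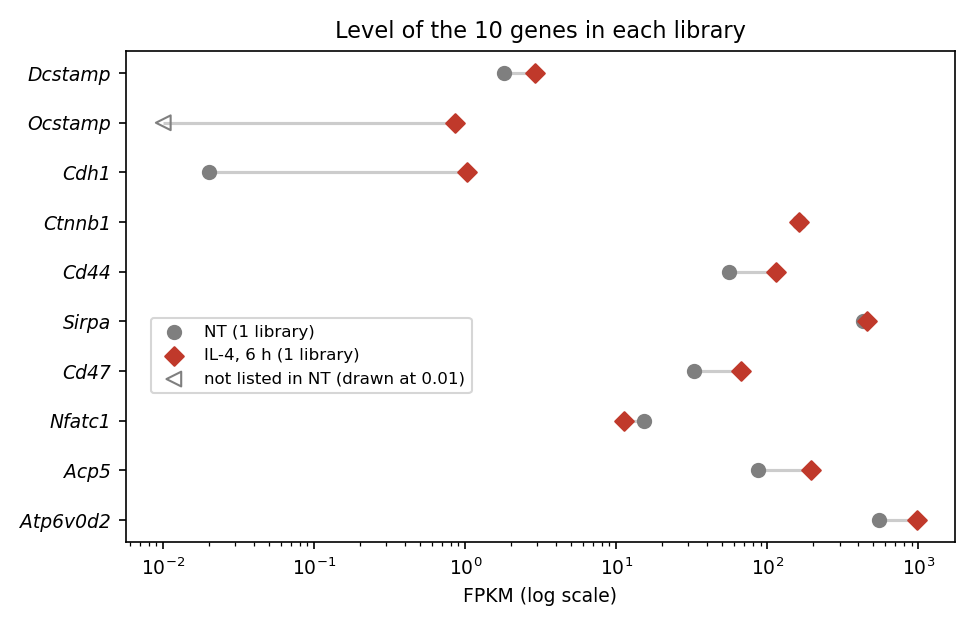
Level of each of the 10 genes in FPKM on a log axis, with 1 point for the NT library (grey) and 1 for the IL-4 library (red). Ocstamp was not listed in NT and is drawn at 0.01. Ocstamp and Cdh1 reached 0.86 and 1.03 FPKM with IL-4, while the 2 points of Ctnnb1 coincide at 161.83 and 161.13 FPKM.

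The fusion proteins were examined first. Ocstamp (chromosome 2, 165395450 to 165400394, GRCm38), which encodes the multipass membrane protein OC-STAMP, had no NT reads and 19 expected counts with IL-4, or 0.86 FPKM. With the NT level set at the floor of 3 counts, its IL-4 level was 6.21 times that floor, a value that leaves out counting error. The 95% counting interval of its ratio, which takes the NT count as 0, started at 4.58-fold. The exact test gave p = 4.58e-06 for these reads. Dcstamp (chromosome 15, 39745930 to 39760938), its relative that encodes DC-STAMP, was present in both libraries. It had 37 expected counts in NT and 62 in IL-4, or 1.79 and 2.87 FPKM. Its log2 ratio of 0.71 had a 95% interval from 0.11 to 1.35, which held both 0.75 and values near 0. Dcstamp was not called because this ratio was under 0.75. The exact binomial test itself was within its limits (p = 0.020, BH-adjusted value 0.0603). The length trend is the median log2 ratio of genes of similar transcript length. With it subtracted, the log2 ratio of Dcstamp was 0.58, and its interval, from -0.02 to 1.22, held 0. The level of Dcstamp in the IL-4 library was 3.34 times that of Ocstamp on the FPKM scale. By FPKM both fusion genes were below the median of the listed genes, at percentile 41.7 for Dcstamp and 27.9 for Ocstamp in the IL-4 library.

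The adhesion genes came next. Cdh1 (chromosome 8, 106603350 to 106670247) encodes E-cadherin, which joins neighbouring cells. It had 1 expected count in NT and 52 in IL-4, or 0.02 and 1.03 FPKM. The ratio was 34.3-fold, with a counting interval from 8.76-fold to 2053-fold, since the NT value rests on 1 read. On the scale of log2 FPKM with 1 added, which shrinks ratios at low level, the difference was 0.99 for Cdh1 and 0.90 for Ocstamp. Ctnnb1 (chromosome 9, 120933400 to 120960507) encodes β-catenin, which binds the tail of E-cadherin and also acts in Wnt signalling. Its level was high and even, with 6451 expected counts in NT and 6556 in IL-4. Its log2 ratio was -0.0045 (interval -0.05 to 0.05), so a change of over 0.05 on this scale lay outside the counting error. On the FPKM scale the level of Cdh1 was 0.00639 times that of Ctnnb1 in the IL-4 library, and no such ratio is given for NT, where Cdh1 was under the floor of 3 counts. None of the other catenins was called higher. Ctnna1, which links the complex to actin, had a log2 ratio of -0.15, and Ctnnd1, which steadies cadherins at the surface, had -0.30. Jup, which encodes γ-catenin, fell from 359 to 217 expected counts, with its log2 ratio of -0.75 at the threshold. With the length trend subtracted, the log2 ratio of Jup was -0.59.

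Since E-cadherin is best known from epithelia, markers of mesothelial and epithelial cells were set beside Cdh1. Of 8 such markers, 6 had reads in NT and 7 in IL-4, and their summed level was 13.2 CPM in NT and 22.5 CPM in IL-4. Krt8 rose from 20 to 74 expected counts and Krt18 from 12 to 79. Msln, a mesothelial surface protein, fell from 12 to 2 counts, and Wt1 had 68 in NT and 65 in IL-4. Epcam, a defining epithelial marker, had 0 and 1 count, and Cldn4 was not listed in either library. The part of such cells in the rise of Cdh1 was not tested.

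Cd44 (chromosome 2, 102811141 to 102901669) encodes the hyaluronan receptor CD44, an adhesion molecule that is used in macrophage fusion. It had 2753 expected counts in NT and 5698 in IL-4, or 56.00 and 113 FPKM. The rise was 2.03-fold (interval 1.94 to 2.13). Among the proteins that tie CD44 to actin, Msn (moesin) had a log2 ratio of 0.48, Ezr (ezrin) 0.24 and Rdx (radixin) -0.19, none of them called. Of the hyaluronan synthases, Has2 had 1 count in each library and Has3 had 0 and 3 counts, while Has1 was not listed.

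Of the recognition pair, the ligand rose and the receptor was not called. Cd47 (chromosome 16, 49851328 to 49912503), whose product binds SIRPα on a neighbouring cell, had 697 expected counts in NT and 1444 in IL-4, with 32.79 and 66.60 FPKM. The rise was 2.03-fold (interval 1.86 to 2.23). Sirpa (chromosome 2, 129591042 to 129632228), the receptor, was among the most abundant transcripts and had 18730 expected counts in NT and 20243 in IL-4. Its log2 ratio was 0.08 (interval 0.06 to 0.11), which is above 0 by counting error but was not called. The level of Sirpa was 13.2 times that of Cd47 in NT and 6.88 times in IL-4, on the FPKM scale. The phosphatases that bind the SIRPα tail had log2 ratios of -0.51 (Ptpn6, encoding SHP-1) and -0.19 (Ptpn11, encoding SHP-2), and neither was called. The activating relatives Sirpb1a, Sirpb1b and Sirpb1c share reads, so their separate values are uncertain. Their sum was 137 expected counts in NT and 91 in IL-4, or -0.62 as a log2 ratio (interval -1.02 to -0.23).

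The osteoclast effector genes were well expressed and rose. Acp5 (chromosome 9, 22126727 to 22135746) encodes tartrate-resistant acid phosphatase (TRAP), the enzyme whose stain defines osteoclasts in histology. It had 1326 expected counts in NT and 3033 in IL-4, with 86.51 and 195 FPKM, a rise of 2.24-fold (interval 2.10 to 2.40). Its level was 2.27 times that of Acp2, which encodes the general lysosomal acid phosphatase, in NT and 4.11 times in IL-4. Atp6v0d2 (chromosome 4, 19876838 to 19922566) encodes the d2 subunit of the membrane part of the V-ATPase, the proton pump of lysosomes and of the bone-facing membrane of osteoclasts, and is also used in cell fusion. It had the highest level of the 10 genes in both libraries, with 15293 expected counts in NT and 27828 in IL-4, or 548 and 978 FPKM. The rise was 1.78-fold (interval 1.75 to 1.82). Atp6v0d2 was not called when edgeR was given a biological coefficient of variation of 0.2 or 0.4 and when the ratio threshold was raised to 1. With 0.4, Acp5, Cd44 and Cd47 were not called either, and 2 of the 10 genes, Ocstamp and Cdh1, were.

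**Figure D2:**
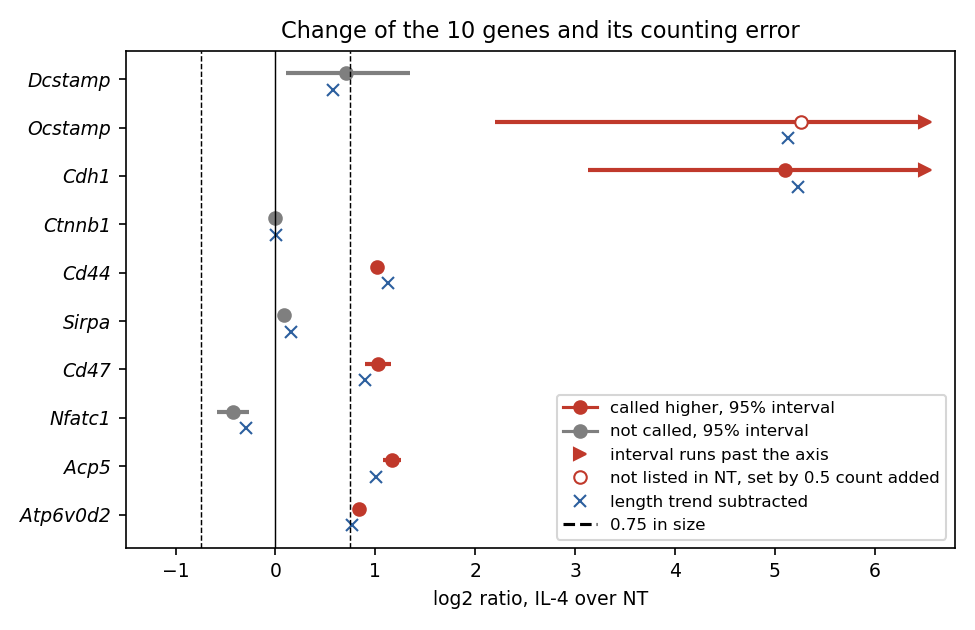
Log2 ratio (IL-4 over NT) for each of the 10 genes, with its exact 95% interval from counting error (dots and lines), and the same value with the length trend subtracted (crosses). Dashed lines stand at 0.75 in size. The intervals of Cd44, Cd47, Acp5 and Atp6v0d2 lie above the threshold, that of Dcstamp spans it, and those of Ocstamp and Cdh1 run past the axis.

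RefSeq promoter windows on GRCm38.p6 were at hand for 4 of the 10 genes, in 8 windows, since some genes have several start sites. They were Cd44, Cd47 and Acp5, which rose, and Ctnnb1, which did not. Dcstamp, Ocstamp, Cdh1, Sirpa, Nfatc1 and Atp6v0d2 had no entry. The 250 bases before each start site were searched for TTCNNNNGAA, the site spacing that Stat6, the transcription factor of IL-4 signalling, is known to prefer. The motif reads the same on both strands. It was found in 5.85% of 32851 windows of this length over all genes and in 2 of the 8 windows. The Cd47 windows overlap each other, as do those of Ctnnb1, so the 8 are not all separate sequence. The matches lay 211 to 202 bases before the start of Cd44, and 110 to 101 bases before 1 of the 3 starts of Acp5. The related spacing TTCNNNGAA of other STAT proteins (7.02% of all windows) and the AP-1 motif TGANTCA (6.75%) were found in none of the 8. The windows with a match are shown with a Cd47 window, which has none, so that genes that rose can be read side by side. Capitals mark the match.
Cd44, minus strand, chr2:102901666-102901915: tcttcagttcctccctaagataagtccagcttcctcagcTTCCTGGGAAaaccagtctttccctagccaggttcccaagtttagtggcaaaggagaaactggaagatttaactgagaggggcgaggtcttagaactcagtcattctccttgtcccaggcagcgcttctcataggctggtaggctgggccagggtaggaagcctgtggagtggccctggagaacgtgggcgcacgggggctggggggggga
Acp5, minus strand, chr9:22130599-22130848: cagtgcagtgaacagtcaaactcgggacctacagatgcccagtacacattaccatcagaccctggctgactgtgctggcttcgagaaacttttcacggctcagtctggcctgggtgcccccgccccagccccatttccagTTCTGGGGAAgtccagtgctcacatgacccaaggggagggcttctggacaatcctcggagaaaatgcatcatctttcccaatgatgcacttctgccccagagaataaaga
Cd47, plus strand, chr16:49855404-49855653: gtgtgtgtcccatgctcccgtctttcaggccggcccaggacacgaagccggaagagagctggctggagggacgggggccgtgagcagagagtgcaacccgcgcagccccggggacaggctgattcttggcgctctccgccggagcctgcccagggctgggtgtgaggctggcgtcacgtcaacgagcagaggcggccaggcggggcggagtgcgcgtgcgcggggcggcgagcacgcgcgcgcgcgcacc
No Cd47 window holds a match, and sequence outside the 250 bases before each start was not searched. A match is a run of letters and was not tested as a binding site.

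The d2 subunit was compared with the rest of the pump. Its paralogue Atp6v0d1, the d subunit of most tissues, had 2690 expected counts in NT and 2881 in IL-4, a log2 ratio of 0.07 (interval -0.01 to 0.15). Atp6v0d2 was thus 3.62 times as abundant as Atp6v0d1 in NT and 6.15 times in IL-4, on the FPKM scale. Of the 22 other V-ATPase genes, 20 were listed, 1 was called higher and none lower. The 1 that rose was Atp6v0a1, which encodes an a subunit of the membrane part. It had 6335 counts in NT and 18821 in IL-4, and its log2 ratio was 1.54. Tcirg1, which encodes the a3 subunit typical of osteoclasts, had 5340 and 5161 expected counts. The 16 other subunit genes with at least 50 counts that were not called had log2 ratios from -0.13 (Atp6v0a2) to 0.70 (Atp6v1b2). Their list had a median log2 ratio of 0.14, against -0.03 over all genes. The length trend was not subtracted from this median, and many subunit genes have short transcripts, for which the trend is above 0. With the trend subtracted, the log2 ratio of Atp6v0d1 was -0.07 and that of Atp6v0a2, a longer gene, was 0.11. The median is thus not read as a rise of the pump genes as a set.

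**Figure D3:**
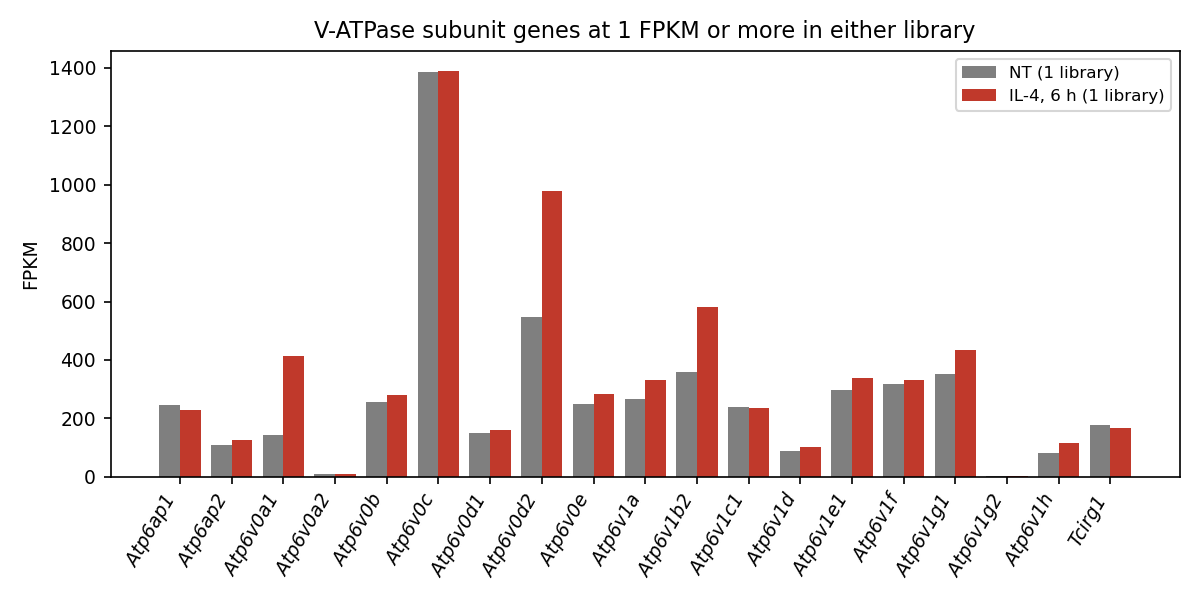
Level in FPKM of the V-ATPase subunit genes that reached 1 FPKM in either library, with 1 bar per library (NT grey, IL-4 red) on an axis from 0. Atp6v0d2 rises from 548 to 978 FPKM and Atp6v0a1 from 142 to 415 FPKM, while Atp6v0d1 (151 and 159 FPKM) and Tcirg1 (177 and 168 FPKM) stay close to their NT level.

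Other genes of bone resorption did not all follow Acp5. Of 14 in the list, 12 were listed, 3 were called higher and none lower. Itgb3, the β3 chain of the vitronectin receptor by which osteoclasts attach to bone, rose from 291 to 717 expected counts (log2 ratio 1.27). Tm4sf19, a four-pass membrane protein gene, rose from 889 to 2368 counts (1.39). Car2, the carbonic anhydrase that supplies protons to the pump, had 1 and 31 counts, a ratio with a log2 interval from 2.34 to 10.28. Car2 had under 50 counts and is named after its value was seen. Ctsk, the collagen-degrading cathepsin of osteoclasts, had 5372 counts in NT and 3570 in IL-4, a log2 ratio of -0.62 that was not called. The level of Acp5 was 0.280 times that of Ctsk in NT and 0.968 times in IL-4, on the FPKM scale. Mmp9, a matrix protease, had 43 and 37 counts, and Calcr, the calcitonin receptor that marks mature osteoclasts, was not listed in either library.

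Nfatc1 (chromosome 18, 80606205 to 80713071), the calcium-regulated transcription factor that leads osteoclast differentiation, had 750 expected counts in NT and 568 in IL-4, or 15.18 and 11.22 FPKM. The log2 ratio was -0.43 (interval -0.59 to -0.27). Nfatc1 was lower by more than counting error but was not called. The NFAT family as a whole was lower, at 33.18 FPKM in NT and 23.21 FPKM in IL-4 in sum. Nfatc1 made up 45.8% of that sum in NT and 48.3% in IL-4. Nfatc2 fell from 85 to 34 counts (log2 ratio -1.34) and Nfat5 from 672 to 407 counts (-0.75), Nfatc3 was not called (-0.45), and Nfatc4 had under 10 counts in each library. The median ratio of genes of similar transcript length was below 0 for each of them. With the median ratio of genes of similar length subtracted, the log2 ratio of Nfatc1 was -0.30, that of Nfatc2 -1.03, that of Nfatc3 -0.17 and that of Nfat5 -0.21.

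The RANK pathway and the other transcription factors of the osteoclast moved in both directions. Of 29 genes listed, 4 were called higher and 3 lower, and the median log2 ratio was -0.01. Tnfrsf11a, which encodes RANK, the receptor that starts osteoclast formation, had 336 and 216 counts and was not called (log2 ratio -0.66). Traf6, which carries its signal, had a log2 ratio of -0.02. Tnfsf11, which encodes the ligand RANKL, had 2 counts in each library. The receptor gene Csf1r, which responds to M-CSF, rose from 6236 to 11896 counts (log2 ratio 0.90), and Csf1, which encodes M-CSF itself, rose from 151 to 353 (1.19). Ppp3r1, the regulatory subunit of calcineurin, which activates NFAT proteins, rose from 1526 to 2722 counts (0.81). Prdm1, a repressor that favours osteoclast formation, fell from 145 to 52 counts.

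Among 16 surface proteins linked to macrophage fusion, 15 were listed, 2 were called higher and none lower. Adam8, a membrane protease, rose from 3694 to 8881 counts (log2 ratio 1.24). Cd36, a scavenger receptor used in IL-4-induced fusion, had 18386 counts in NT and 31898 in IL-4 (0.77), and the threshold lay inside its interval (0.74 to 0.79). The tetraspanin gene Cd9 had a log2 ratio of 0.37 and Trem2, a receptor that signals through DAP12, one of 0.02. Of 18 genes of fusion signalling and actin control, none was called higher and 3 were called lower. These were Vav3, an exchange factor that acts on the actin skeleton (log2 ratio -0.85), Sh3pxd2a, a podosome scaffold (-0.85), and Wasf2, which drives branched actin (-0.84). With the length trend subtracted the ratios were -0.68 for Vav3, -0.32 for Sh3pxd2a and -0.76 for Wasf2. Tyrobp, which encodes DAP12, had a log2 ratio of -0.30.

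Of 16 cadherin and catenin partners, 1 was called higher and 1, Jup, lower. The gene that rose was Tcf7l2, a transcription factor that β-catenin binds, with 65 counts in NT and 133 in IL-4. Of 15 genes grouped with CD44, CD47 and the SIRP proteins, 14 were listed, none was called higher and 2 were called lower. The group is not limited to genes whose products bind these proteins. Cd24a, a small anchored surface protein gene, fell from 634 to 164 counts (log2 ratio -1.98), and Sirpb1c from 91.8 to 49.9. Sirpb1c shares reads with Sirpb1a and Sirpb1b, so its own call is uncertain. The sum of these 3 genes had a log2 ratio of -0.62, under the threshold in size. Over the 7 lists together, 11 of 124 genes with reads were called higher (8.87%) and 9 lower (7.26%), against 4.07% and 6.28% of all genes tested. The list genes had a median of 19.9 FPKM in NT, against 4.4 FPKM over all genes tested, so these shares too compare genes of unlike level.

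**Figure D4:**
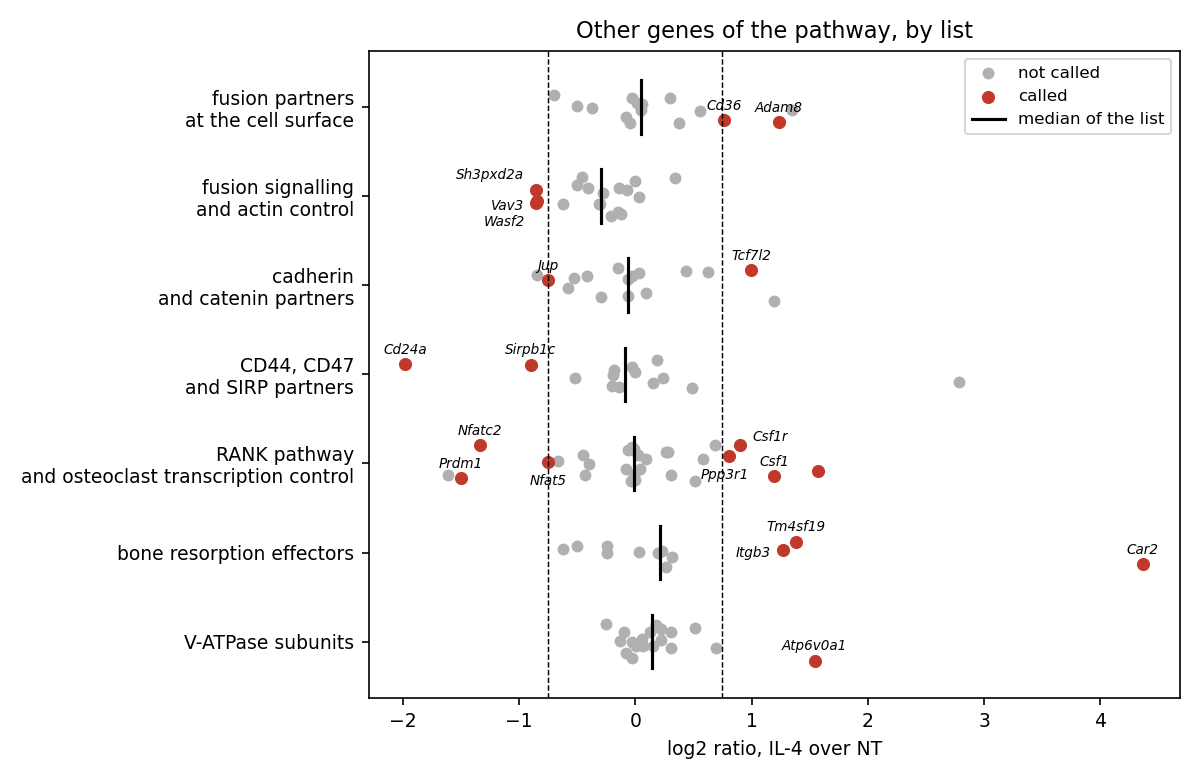
Log2 ratio (IL-4 over NT) for each other gene of the 7 pathway lists, 1 point per gene with random vertical offset, with called genes in red, most of them named, and the median of each list as a black bar. The medians lie between -0.29 (fusion signalling and actin control) and 0.21 (bone resorption effectors), and called genes stand on both sides.

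The genes nearest to each called gene by level in the 2 libraries were found by Euclidean distance over log2 FPKM with 0.1 added, among genes with at least 50 counts. Ocstamp and Cdh1 had the same 3 neighbours, Col6a5, Ksr2 and Il31ra, all of them near 0 in NT. Their distances ran from 0.591 to 1.35 for Ocstamp and from 0.362 to 1.15 for Cdh1. A gene near 0 in NT could pass the filter of 50 counts only through its IL-4 count, so the filter partly set this likeness. Cd44 was nearest to Cfp, Mgat1 and Id2, and Cd47 to Ifrd1, Pfkp and Tor3a. Emp1 and Hmgn2 were among the nearest to Acp5, at distances of 0.0935 and 0.262. Atp6v0d2 was nearest to Cd36, Rpl29 and Ctsl, at 0.379 to 0.414. With 2 libraries such likeness is a pair of similar levels and no more.

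**Figure D5:**
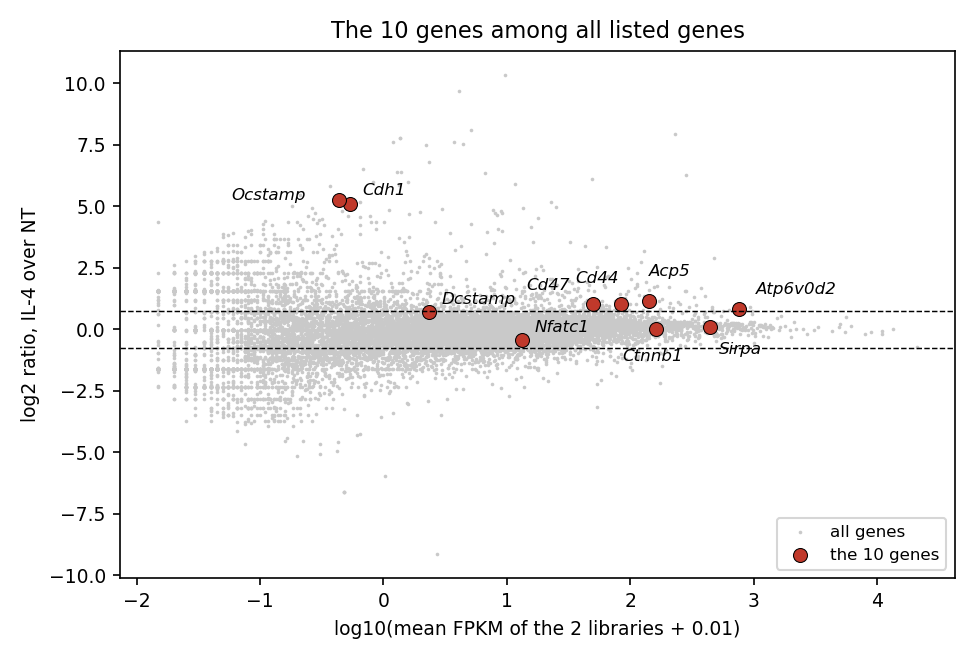
Log2 ratio (IL-4 over NT) against mean level for all listed genes (grey points) and the 10 genes (red), with mean level as log10 of FPKM plus 0.01 and dashed lines at 0.75 in size. Ocstamp and Cdh1 lie at low level with log2 ratios over 5, both of which depend on the 0.5 count added. They rest on 19 and 53 reads in all. Acp5, Cd44, Cd47 and Atp6v0d2 lie at high level with ratios from 0.84 to 1.17.

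The structure of the gene models bears on these values in a few places. The expected counts of the 10 genes, as deposited, were exact whole numbers in both libraries, with Ocstamp, not listed in NT, taken as 0. The length of a gene, weighted over its transcripts, differed by over 1% between libraries in 1 of 9 genes, Dcstamp, with 1880.85 bases in NT and 1922.25 in IL-4. In the other 8 the difference was at most 0.477%. Ctnnb1 overlaps Ulk4, a gene on the opposite strand with 11 counts in NT and 10 in IL-4, and Acp5 overlaps 6530413G14Rik, which was not listed. Whether the counting used strand is not given in the sources used here.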

How the data were processed

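RNA of the 2 samples was sequenced on an Illumina HiSeq by BGI. For the deposited tables, Bowtie aligned the reads (GRCm38/mm10) and RSEM estimated gene abundance, in versions not given in the sources used here. The deposited tables hold expected counts, which are RSEM estimates not scaled for depth, and FPKM values, which the authors scaled for length and depth. Another deposited column, the gene length in bases weighted over transcripts, was used only for the length trend and checks. A gene absent from a table was set to 0. Of 15623 gene numbers, 15587 were matched to symbols and positions in RefSeq for GRCm38, and 36 were not.

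Log2 ratios were computed from counts scaled to the library totals with 0.5 count added. Counts were rounded, which left 30 genes with no reads in either library out of the test, and each other gene was given an exact two-sided conditional binomial test with BH adjustment over 15593 genes, at the thresholds that the study states. The share of reads from IL-4 was given its Clopper-Pearson 95% interval, turned into a ratio. To obtain the length trend, 8461 genes with at least 200 reads were ordered by length, and the median was taken over the closest 301. Overlaps and strands came from the GENCODE annotation of GRCm38. The procedure was tested on simulated data drawn with counting error only, which is what the test assumes. That simulation checks the code and does not bear on the spread between replicates.

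The 10 genes, the 7 pathway lists and the marker lists were chosen with earlier results of these data known. All 10 genes are named, as are up to 6 called genes of each list with at least 50 counts, set paralogues and partners, and Arg1 and Chil3. The nearest genes by level follow a set distance rule. Some items that the rule would name are not reported here. Car2, Msn, Ezr, Rdx, the Has genes, Sirpb1a, Sirpb1b, Acp2, Tcirg1, Atp6v0a2, Atp6v1b2, Tnfsf11, Cd9, Trem2 and Tyrobp lie outside this rule and were chosen after their values were seen. Markers of B, T and NK cells, neutrophils, mast cells, eosinophils, dendritic cells, fibroblasts and adipocytes were summed too. Alternatives were scaling by TMM in edgeR (version 4.0.16) or by the size factors of DESeq2 (version 1.42.0), library totals less their 100 top genes, FPKM with 0.1 or 1 added, the edgeR exact test with assumed coefficients of variation, other thresholds, a filter at 10 counts and subtraction of the length trend. Software was R 4.3.3 and Python 3.11.15, with pandas 2.3.3, scipy 1.17.1, numpy 2.4.6 and, for plots, matplotlib 3.10.9.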

Additional observations from a re-analysis of the deposited data

How the results depend on the processing

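No paired analysis was possible because only 1 library was made per group, and for that reason no replicate could be left out. The main rule called 635 genes higher and 979 lower, 6 of the 10 genes higher and 0 lower, and 11 genes of the pathway lists higher and 9 lower. FPKM with 1 added gave 391 higher and 399 lower over all genes, and 3 lower in the lists. The edgeR exact test at a coefficient of variation set to 0.2 gave 390 higher and 423 lower, with 7 higher and 3 lower in the lists. With 0.4 it gave 65 higher and 8 lower, 2 higher among the 10 genes, and 1 higher and 0 lower in the lists. Raising the ratio threshold to 1 and lowering the BH limit to 0.05 gave 408 higher and 476 lower, with 7 higher and 3 lower in the lists. By their definition these settings assume more spread, ask for a larger ratio or shrink ratios at low level.

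The log2 ratio of Ctnnb1 changed sign, from -0.0045 to 0.032 with TMM scaling, 0.023 with median-of-ratios scaling and 0.0045 with the length trend subtracted, and was never called. Over the 10 genes and 12 alternatives, 111 of 120 values kept their direction and their side of the threshold, 6 lost the call and 3, those of Ctnnb1, changed sign. The edgeR tests, the other thresholds and the count filter reuse the main log2 ratios, so no direction could change there. The FPKM settings reuse the p and BH values of the main test, so only the ratio could alter a call. Ocstamp and Cdh1 were called in all 12, although their log2 ratios were 0.90 and 0.99 with FPKM and 1 added. Dcstamp was called in none of the 12, with ratios from 0.47 to 0.75. The depth limits Dcstamp, Ocstamp and Cdh1, which rest on 99, 19 and 53 reads.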

Other observations

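Markers of other cells that a peritoneal lavage can hold were summed in both libraries. The 5 B cell markers had 9.61 CPM in sum in NT and 8.62 CPM in IL-4, and the 5 dendritic cell markers 6.15 and 6.27 CPM. The 6 T and NK cell markers had 2.06 and 1.88 CPM, with Trac not listed, and the 6 neutrophil markers 3.26 and 1.87 CPM, with Ly6g, S100a9, Mpo and Ngp not listed. The 5 mast cell markers had 5.44 and 3.29 CPM, with Fcer1a not listed, and the 4 eosinophil markers 4.80 and 2.49 CPM, with Epx and Ccr3 not listed and Siglecf called lower (53 and 27 counts). Fibroblast markers were the most abundant, with 208 CPM in NT and 171 CPM in IL-4 over 5 genes, and all 5 were present in both. The mesothelial and epithelial markers are given beside Cdh1. Of 5 adipocyte markers, Adipoq had no NT counts and 139 with IL-4, and Plin1, Cidec, Lep and Cfd were not listed in either.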
